A study of Mus musculus with 2 samples.

Results

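Cycling tumor cells of PyMT-N mammary tumors are described here from droplet-based single-cell RNA sequencing. They were chosen by their own expression. A barcode of the PyMT-N library was kept if it had at least 2000 detected genes and at most 10% mitochondrial unique molecular identifiers (UMIs), at least 3 UMIs of Krt8 and Krt18 together, at most 1 UMI of Pecam1, Emcn, Flt1 and Kdr, at most 1 UMI of Ptprc, Tyrobp and Laptm5, and Col3a1 under 3000 counts per 1000000 UMIs (CPM). Of the 3564 cells that passed, the 128 with a summed level of at least 500 CPM of Mki67, Top2a, Cdk1, Birc5, Ube2c, Cenpf and Nusap1 are the cycling cells, and the other 3436 are the reference. They are 128 of 6974 PyMT-N barcodes and of 14795 barcodes in the series.

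The series holds 2 libraries, one of PyMT-M (High-MAC, macrophage-rich) and one of PyMT-N (Low-MAC) tumors, both grown from sublines of MMTV-PyMT mammary tumors after transplantation into the mammary fat pad of female C57BL/6 mice that were 6 to 8 weeks old. In this transgene the mouse mammary tumor virus promoter drives the polyoma middle T antigen in mammary epithelium. Each library pools 3 tumors that were dissociated separately, enriched for endothelial cells on magnetic beads and sorted before pooling, and carries no further treatment. Tumor cells are therefore those that came through an endothelial sort, and their numbers do not measure the makeup of a tumor. The PyMT-N library held 116150425 UMIs (median 15878 per barcode) and the PyMT-M library 141067264 (median 18790). With 1 library per tumor model and no map of cells to tumors, no test between groups or classes was possible. Intervals given below are exact 95% intervals that cover counting error only. Of 20 barcodes that the libraries share, 0 are cycling PyMT-N cells and 7 are in the reference.

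A dividing cell copies its DNA in S phase and separates the copies in mitosis. Genes for origin licensing and nucleotide supply are mostly transcribed around the G1/S transition under E2F factors, and genes for the spindle and chromosome segregation later, in G2 and M, where the DREAM, B-MYB and FOXM1 complexes act through the CHR element, often with CCAAT boxes bound by NF-Y nearby. The APC/C ubiquitin ligase, for which Ube2c is the initiating E2 enzyme, then destroys cyclins and lets the cell divide.

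Promoters of the genes that chose the cells are shown because the rule leans on late-cycle genes. In the 250 bases before the annotated start, the CHR letters (TTTGAA or TTTAAA, either strand) occurred for 6 of the 7 genes, against 25.2% of 32851 RefSeq promoter windows of mouse, and CCAAT (either strand) for 5 of 7, against 33.9%. The E2F letters TTTGGCGC or TTTCCCGC occurred for 0 of 7, against 1.30% of windows. Such matches describe letters and do not show binding. The 150 bases before the start are printed for the 5 genes with a match in that stretch (Birc5 and Nusap1 had none there), 5′ to 3′ on the gene's strand from RefSeq on GRCm38.p6, an older build than the mm39 named for the counts, with CHR and CCAAT matches (or their reverse complements, TTCAAA and ATTGG) in capitals.
Top2a (chr11:99024190-99024339, minus strand): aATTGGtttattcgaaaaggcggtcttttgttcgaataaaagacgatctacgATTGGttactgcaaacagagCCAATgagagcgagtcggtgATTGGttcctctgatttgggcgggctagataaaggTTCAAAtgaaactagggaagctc
Cdk1 (chr10:69352913-69353062, minus strand): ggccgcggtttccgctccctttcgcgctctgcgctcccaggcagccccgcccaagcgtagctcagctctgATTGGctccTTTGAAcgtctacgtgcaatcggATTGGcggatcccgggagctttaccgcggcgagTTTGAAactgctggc
Ube2c (chr2:164769779-164769928, plus strand): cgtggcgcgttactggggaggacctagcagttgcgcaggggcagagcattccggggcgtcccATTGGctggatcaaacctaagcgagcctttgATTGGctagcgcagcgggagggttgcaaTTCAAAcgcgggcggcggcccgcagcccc
Mki67 (chr7:135716380-135716529, minus strand): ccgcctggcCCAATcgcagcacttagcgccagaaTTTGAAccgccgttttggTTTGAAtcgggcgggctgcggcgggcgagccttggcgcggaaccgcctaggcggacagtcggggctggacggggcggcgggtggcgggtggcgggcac
Cenpf (chr1:189688087-189688236, minus strand): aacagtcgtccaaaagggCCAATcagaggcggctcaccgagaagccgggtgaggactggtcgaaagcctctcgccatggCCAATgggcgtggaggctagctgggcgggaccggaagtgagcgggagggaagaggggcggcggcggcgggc
Among windows of a G2/M list of other genes, 12 of 28 held the CHR letters and 22 of 28 CCAAT, and among windows of a G1/S list 5 of 27 and 16 of 27. The E2F letters were in 0 of 28 G2/M and 5 of 27 G1/S windows.

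Cycling cells made up 3.59% of the PyMT-N tumor gate (128 of 3564, interval 3.0 to 4.26). The summed level of the 7 genes ran from 507 CPM in the lowest cycling cell through a median of 2230 to 6912, and the median of the reference was 0, with 2161 of 3436 reference cells (62.9%) holding no UMI of any of the 7. The cells just inside the threshold had 507, 555, 663, 666 and 669 CPM and those just outside 442, 414, 405, 385 and 371. Of the reference, 17 cells (0.477% of the gate) had 250 CPM or more. The same gate in the PyMT-M library gave 2681 of 3861 cells past the threshold (69.4%, interval 68.0 to 70.9), with 352 cells (9.12%) from 250 to 500 CPM. Among PyMT-N endothelial cells (at least 5 UMIs of the 4 endothelial genes and fewer than 3 keratin UMIs) it was 99 of 1152 (8.59%, interval 7.04 to 10.4). In cycling PyMT-M cells, taken without the keratin limit, Krt8 was at 253 CPM and Krt18 at 0.107 CPM. There the keratin limit rested almost wholly on Krt8, so the same gate did not keep cells with like keratins in both libraries. The shares were not tested against each other, and tumor model and library cannot be told apart.

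**Figure D1:**
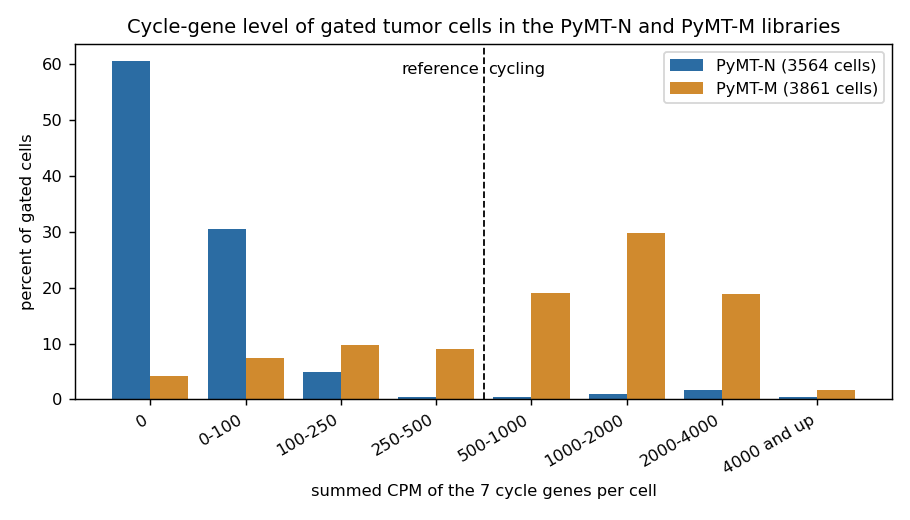
Percent of gated tumor cells (y axis) in bins of the summed CPM of the 7 cycle genes per cell (x axis, first bin exactly 0), with PyMT-N and PyMT-M bars side by side and the 500 CPM threshold as a dashed line. PyMT-N cells pile up at 0 (60.6%), 3.59% are past the threshold, and PyMT-M cells are highest from 1000 to 2000 CPM (29.9%).

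The label was checked against its markers and against genes the gate did not use. Krt8 and Krt18, the paired keratins of simple epithelium, were required together, and cycling cells held them at 743 and 738 CPM, against 814 and 1018 CPM in the reference. Both were gate genes, so their presence does not check the label. Other epithelial markers were mixed. The luminal and junction list summed to 349 CPM in cycling, 494 CPM in reference and 498 CPM in PyMT-N endothelial cells. Cycling cells held the junction genes Jup (118 CPM) and Tjp1 (113 CPM), but endothelial cells held them too, at 112 and 376 CPM. The luminal regulators Gata3 (83.1 CPM) and Esr1 (25.8 CPM) were detected in cycling cells, against 3.12 and 2.98 CPM in endothelial cells. Several defining epithelial genes were at or near 0. Epcam and Cdh1 had 1 UMI each in 4811118, Krt14 had 2, and Krt5, Krt15, Krt17, Krt6a, Krt20, Cldn4, Ocln, Elf5 and Pgr had 0, where 3 UMIs would be 0.624 CPM. Vim, a mesenchymal intermediate filament, was at 3325 CPM. Of the other 10 keratins Krt10 was the most abundant, at 9.98 CPM. Thinned to 8000 UMIs, Dmp1 and Mgp, which were in 0% and 0.1% of cycling PyMT-M cells, were in 59.1% and 100% of cycling PyMT-N tumor cells and in 1.1% and 30.4% of the cycling endothelial cells of that library. The PyMT-M cells here were taken without the keratin limit. Dmp1 and Mgp are thus not shared by both kinds of tumor cells, and their levels are a description that does not check the label.

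Markers of blood endothelial, myeloid and lymphoid cells were low and those of fibroblasts and pericytes were not. The gate itself limited Pecam1, Emcn, Flt1, Kdr, Ptprc, Tyrobp, Laptm5 and Col3a1. The 12 blood endothelial markers summed to 19.7 CPM in cycling cells, 17.0 in the reference and 9290 in endothelial cells, with Kdr and Tek at 0 and Egfl7, not a gate gene, the most abundant at 8.11 CPM. The 14 myeloid markers summed to 16.8 CPM in cycling cells and 24.6 in the reference, led by Cd14, with Laptm5, Csf1r, Adgre1, Cd68 and S100a9 at 0. The 11 lymphocyte markers summed to 1.25 and 1.66 CPM, with only Trac and 1 other gene detected. The 12 fibroblast and pericyte markers summed to 462 and 691 CPM, against 71.5 in endothelial cells, led by Pdgfrb at 138 CPM, Col3a1 at 98.9 CPM and Col1a1 at 83.8 CPM, with Rgs5, Des and Dpt at 0. Of the 7 lymphatic markers Pdpn gave 83.6 of 86.9 CPM. Red blood cell markers summed to 0.624 CPM in cycling and 0.863 CPM in reference cells, and adipocyte markers to 1.66 and 0.901 CPM. The part of these cell types in the results below was not tested. A doublet caller marked 1 of the 128 cycling and 2 of the 3436 reference cells, and 17 cycling cells (13.3%) were in the 6% of PyMT-N barcodes with the highest doublet scores, against 205 reference cells (5.97%).

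Cycling cells were deeper. They held a median of 34696 UMIs (6003 to 101077) and 6130 genes, against 20702 UMIs and 4800.5 genes in the reference, a ratio of medians of 1.68. The ratio was 1.21 under the same gate in PyMT-M and 1.32 in PyMT-N endothelial cells. The mitochondrial share was alike, with medians of 2.78% and 2.82%. More RNA per cell and deeper capture cannot be told apart here. Since depth moves with the class, counts are also given against 236 reference cells drawn to the UMI distribution of the cycling cells (median 34608.5 UMIs).

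Summed counts of the 2 classes were compared as log2 ratios of CPM, cycling over reference, for the 10993 genes with at least 200 UMIs over both. A gene at least 2-fold apart is called higher or lower. As the minimum is over both classes, a gene nearly absent from the reference could be ranked only through its cycling counts. Tallies of higher genes among ranked members are therefore partly set by this filter. As the rule chose the cells in this same contrast, every ratio is a description. Of the ranked genes, 613 (5.58%) were higher and 526 (4.78%) lower, and the median log2 ratio was -0.08. Against the depth-matched reference 346 of 7352 ranked genes (4.71%) were higher and 100 (1.36%) lower. Of 420 higher genes ranked there as well, 329 were still higher, and of 138 lower genes 71 were still lower. The same split in PyMT-M tumor cells without the keratin limit (3573 cycling, 1651 reference) called 295 of 11029 ranked genes (2.67%) higher and 39 (0.354%) lower, and in PyMT-N endothelial cells (99 and 1053) 298 of 8112 (3.67%) higher and 309 (3.81%) lower. Without that limit no positive marker of tumor cells was required in PyMT-M. Their name rests on the limits to endothelial, immune and Col3a1 counts.

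The cell cycle lists hold 200 genes besides the 7 of the rule, of which 175 were ranked, 155 were higher and 0 lower, with a median log2 ratio of 3.30. Against the depth-matched reference 129 of 153 were higher. Members scarce in the reference could enter both tallies only through their cycling UMIs. Both are thus partly set by the count minimum and describe the ranked members only. In the 7 genes of the rule the log2 ratio ran from 4.69 for Cdk1, the mitotic kinase, through 6.00 for Top2a, the topoisomerase that untangles chromosomes, 7.40 for Mki67, 7.49 for Birc5 (survivin) and 7.67 for Nusap1, to 8.86 for Cenpf, a kinetochore protein, and 9.20 for Ube2c. A per-cell median of 468 CPM for Top2a and 209 CPM for Cenpf in cycling cells stood against 0 in the reference. Thinned, 92.9% of cycling and 5.3% of reference cells had a Top2a UMI, and 69.3% and 0.4% a Cenpf UMI (96.1% and 13.0%, and 92.2% and 1.0%, unthinned).

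DNA replication genes were higher, with lower list medians than the spindle and kinetochore genes. All 15 ranked genes of origin licensing and firing were higher (median log2 2.49, of 18 members), led by Mcm5 of the replicative helicase (3.82, interval 3.57 to 4.07), the licensing inhibitor Gmnn (3.67) and the origin kinase subunit Dbf4 (3.42). Mcm6 (1.62), Orc6 (1.39) and the licensing factor Cdt1 (1.23) were lowest. All 21 genes of DNA synthesis and nucleotide supply were higher (median 2.87), from Rrm2, the small subunit of ribonucleotide reductase (5.99, 95.6 against 1.51 CPM), thymidine kinase Tk1 (5.25) and polymerase Pole (4.86) to Rfc3 (1.65), Rfc2 (1.58) and Dut (1.01), which is abundant in the reference too at 222 CPM. Against the depth-matched reference 11 of 12 origin and 19 of 20 synthesis genes were higher, with Cdt1 at 0.66 and Dut at 0.86. All 11 ranked DNA repair and checkpoint genes were higher (median 3.02, of 15), with Rad51ap1 at 5.79 and Brca1 at 4.31, and Chek2, Atad2 and Topbp1 lowest at 2.60, 2.37 and 2.09. Among histones and chromatin assembly genes 17 of 20 were higher (median 2.27). Linker histone H1f5 led at 6.59, with Asf1b at 6.02 and H2ac4 at 6.00, and Cbx5 (0.94), H1f2 (-0.42) and H2bc4 (-0.97) were under 2-fold. Histone gene copies are near-identical, so reads may be shared among them.

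Regulators of the cycle split. Of 15 ranked cyclins and kinases 10 were higher (median 1.86). The S and M phase cyclins Ccna2 (8.17, 108 against 0.37 CPM), Ccnb1 (6.75) and Ccnb2 (5.97) led, and Ccne1 was at 2.22. The D cyclins, which bind Cdk4 and Cdk6 in G1, differed among themselves. Ccnd1 was at 453 CPM in cycling and 197 CPM in reference cells (1.20, and 0.67 against the depth-matched reference), Ccnd2 was at 58.2 and 39.1 CPM (0.58), and Ccnd3 at 109 and 190 CPM (-0.80). Cdk4 (0.55) and Cdk6 (0.74) were under 2-fold. Of 8 ranked CDK inhibitors and pocket proteins 4 were higher, led by Cdkn3 (5.93), Rbl1 (2.62) and Cdkn2d (2.09), while Cdkn1b (0.10), Rb1 (-0.44) and Rbl2 (-0.78) were not. Against the depth-matched reference 2 of 7 were higher, Cdkn3 (4.14) and Cdkn2d (2.31). Of 7 ranked E2F, MYB and FOXM1 regulators 6 were higher (median 1.29), with Foxm1 at 5.02, E2f8 at 1.98 and Lin54 at 1.81, then Tfdp1 (1.23), Lin9 (1.21) and E2f3 (-0.15). Against the depth-matched reference 3 of 6 were higher, and Tfdp1 and Lin9 were at 0.89 and 0.86.

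The machinery of mitosis had the highest ratios, among members that the count minimum could rank through their cycling counts. All 18 ranked kinesins and spindle genes were higher (median 5.94, of 20), with the microtubule depolymerase Kif2c at 9.41 (52.4 against 0.08 CPM), the spindle protein Hmmr at 9.10 and the spindle motor Kif11 at 8.01, and Stmn1 (3.89), Kif18a (3.60) and Ckap5 (1.70) lowest. All 14 ranked kinetochore and centromere genes were higher (median 5.80, of 16), from Nuf2 (8.75), Ska1 (8.08) and Ndc80 (7.75), which hold microtubules, to Cenph (4.36), Cenpp (4.32) and the CENP-A chaperone Hjurp (1.74). All 15 ranked spindle checkpoint and Aurora-Polo genes were higher (median 6.18, of 16), from Pbk (8.42), Ttk (7.94) and Plk1 (7.72) to Mad2l1 (4.13), Plk4 (3.72) and Bub3 (1.23). The 12 condensin and cohesin genes had 9 higher, led by the cohesin acetyltransferase Esco2 (8.91) and the condensin subunits Ncapg (6.60) and Ncaph (5.12). Of the cohesin genes, present outside division as well, Smc1a (0.95), Smc3 (0.57) and Stag1 (0.17) were under 2-fold, while Rad21 was at 1.38. Of 14 ranked APC/C and cytokinesis genes 11 were higher. Anln (6.71), Cep55 (6.64) and the APC/C activator Cdc20 (6.20) led, and the subunits Anapc5 (0.65) and Anapc1 (0.31) and the securin gene Pttg1 (-0.38) were under 2-fold. Pttg1 was at 26.6 CPM in cycling and 34.5 CPM in reference PyMT-N cells, against 146 and 59.1 CPM in PyMT-M cells, where its log2 ratio was 1.31.

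**Figure D2:**
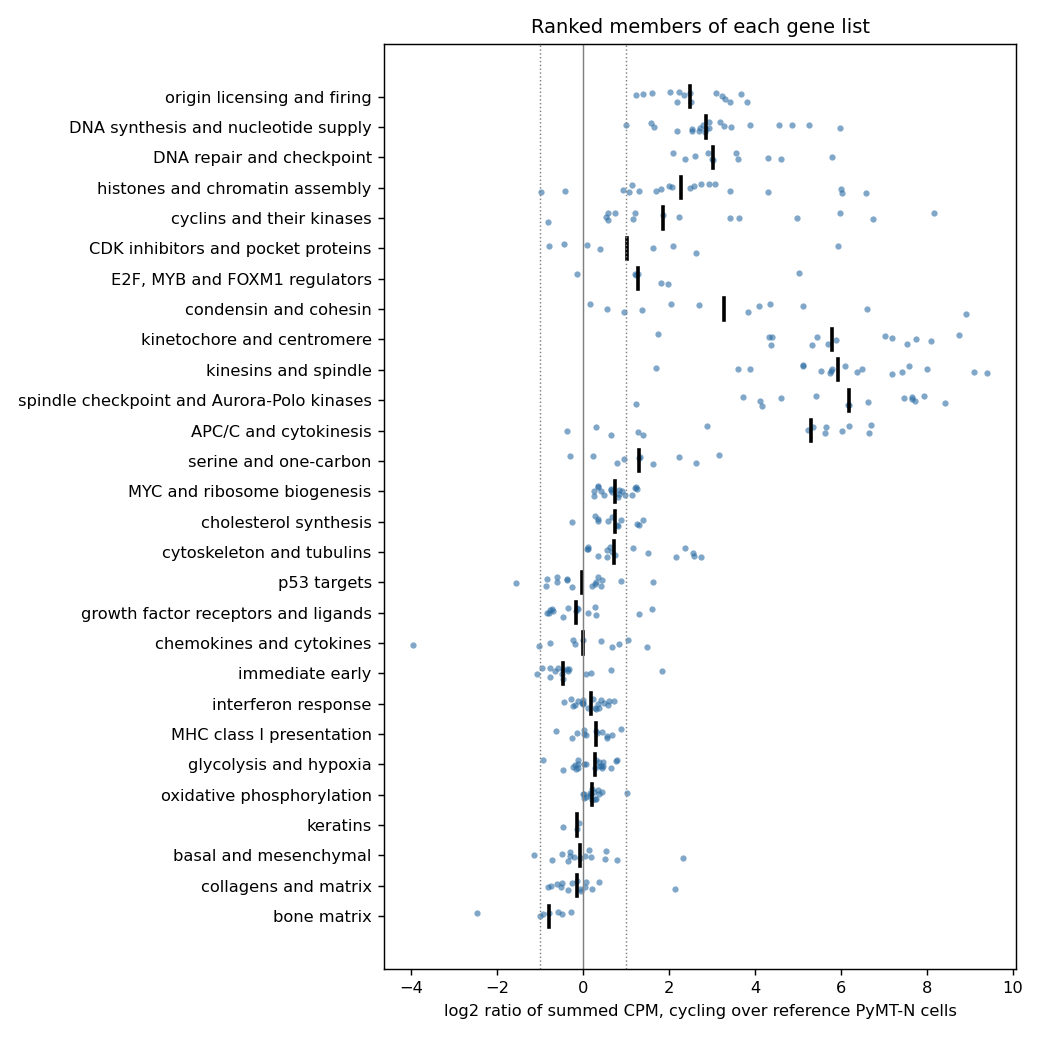
Log2 ratio of summed CPM, cycling over reference PyMT-N cells (x axis), for the ranked members of each gene list (rows), with 1 point per gene, a black bar at the list's median and dotted lines at 2-fold. Mitotic lists reach medians near 6, replication lists lie from 2.49 to 3.02, and of the lists outside the cycle serine and one-carbon metabolism is highest (1.31) and bone matrix lowest (-0.80).

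Outside the lists, the 10 genes with the highest ratio included further cycle genes and histones, Depdc1a (8.65), H3c3 (7.97), Aspm (7.82), Pimreg (7.65), Shcbp1 (7.49), Neil3 (7.44), Pclaf (6.85, the PCNA-binding factor, at 323 CPM), Cdca5 (6.56) and H2ac24 (6.28). The other, Iglc1, an immunoglobulin light chain gene (8.19), had all 651 of its UMIs in cycling cells in 1 cell, which also held 87 UMIs of Igkc, 61 of Jchain and 40 of Mzb1, plasma cell genes, beside 3 of Krt8 and 8 of Krt18. Its doublet score was above that of 98.7% of PyMT-N barcodes.

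Cycling cells lay at different points of the cycle. Each cell was thinned to 8000 UMIs, which left out 1 cycling and 45 reference cells, and its UMIs of 30 G1/S and 30 G2/M genes, none of them of the rule, were summed. Cycling cells had a median of 13 G1/S UMIs (2 to 49) against 3 (0 to 32) in the reference, and 23 G2/M UMIs (1 to 92) against 0 (0 to 17). Of 127 cells 84 (66.1%, interval 57.2 to 74.3) had more G2/M UMIs, 40 (31.5%, interval 23.5 to 40.3) more G1/S UMIs and 3 equal numbers. The classes are ranges of a score, and 23 cells (18.1%) differed by no more than the square root of their summed UMIs. Cycling PyMT-M tumor cells without the keratin limit were at 49.5% more G1/S (interval 47.8 to 51.2). Cycling PyMT-N endothelial cells were at 34.8% (interval 25.1 to 45.4). The threshold on late-cycle genes bears on these shares, which ran from 36.8% at 250 CPM to 25.2% at 1000 CPM.

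The reference overlapped the cycling cells in G1/S level. Of 3391 reference cells 1521 (44.9%, interval 43.2 to 46.5) were at or above the lower 10% point of the cycling cells. In 63 of 3391 reference cells (1.86%, interval 1.43 to 2.37) G1/S UMIs reached the cycling median of 13, while 0 of 3391 (exact interval up to 0.109%; a limit of 3 counts would be 0.0885%) reached the G2/M median of 23. The rule kept cells with high late-cycle genes out of the reference, so the G2/M count is largely set by the choice of cells and is no contrast to the G1/S count. Free RNA gives UMIs to any cell, and its part in the 63 cells was not tested. The share of 1.86% was lower without thinning and at a 250 CPM threshold, with values in the last section.

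**Figure D3:**
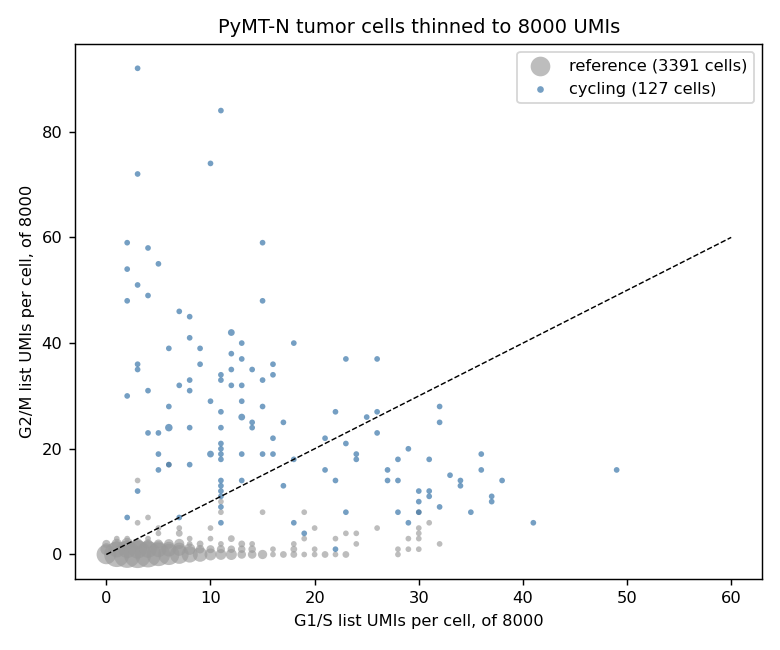
UMIs of the G1/S list (x axis) and of the G2/M list (y axis) per PyMT-N tumor cell thinned to 8000 UMIs, with larger points for more cells at 1 position and the dashed line at equality. Cycling cells spread on both arms, up to 49 G1/S and 92 G2/M UMIs, and the reference lies along the bottom with a thin tail to 32 G1/S UMIs.

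The 84 cells with more G2/M UMIs and the 40 with more G1/S UMIs had median depths of 35542 and 32499.5 UMIs, and median rule levels of 2805 and 1361 CPM. The 7 genes were not even between them. Ube2c was at 779 CPM in the G2/M range and 177 CPM in the G1/S range, and Cenpf at 388 and 89.7 CPM, while Top2a was at 573 and 396 CPM and Mki67 at 303 and 192 CPM. Outside the lists that set the ranges, 11 other DNA synthesis genes summed to 1112 CPM in the G1/S range and 525 CPM in the G2/M range (log2 -1.08, interval -1.18 to -0.98), 14 repair genes differed by -0.78, and 13 APC/C and cytokinesis genes by 0.45 the other way. Other mitotic lists differed less, with 9 kinesin and spindle genes at 0.36, 8 spindle checkpoint genes at 0.27, 12 condensin and cohesin genes at 0.13 and 12 kinetochore genes at 0.03 (interval -0.06 to 0.13). Lists outside the cycle differed by as much as these mitotic lists, with luminal and junction genes at 0.44 (interval 0.28 to 0.60), interferon response at 0.39, fibroblast and pericyte at 0.39 and cholesterol synthesis at -0.43. The 12 serine and one-carbon genes summed to 489 CPM in the G1/S and 343 CPM in the G2/M range (-0.51, interval -0.65 to -0.38).

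Outside the cycle machinery, 6 of 10 ranked genes of serine and one-carbon metabolism, which supplies carbon units for nucleotides, were higher in cycling cells. Of the list of 12, 0 were lower (median log2 1.31, against -0.08 for all ranked genes), and 4 of 8 were higher against the depth-matched reference. Psat1 was at 36.8 CPM in cycling and 4.11 CPM in reference cells (3.16, interval 2.89 to 3.43), Phgdh, the entry enzyme, at 71.7 and 11.7 CPM (2.62), and the mitochondrial folate enzyme Mthfd2 at 68.6 and 14.5 CPM (2.24). They were at 2.22, 2.12 and 2.28 against the depth-matched reference. Their per-cell medians were 26.7, 27.1 and 37.6 CPM in cycling cells and 0 in the reference, though single reference cells reached 465 CPM of Psat1. Shmt2 (1.63), Mthfd1 (1.32) and Asns (1.30) were also higher, and Psph (0.78), Slc7a11 (0.23) and Slc1a4 (-0.30), a serine transporter, were lowest. In PyMT-M cells 0 of 11 were higher and Psat1 was already at 95.2 CPM in the reference and 113 CPM in cycling cells, and in PyMT-N endothelial cells 4 of 4 ranked members were higher.

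Other biosynthetic lists lay between. Of 16 cytoskeleton and tubulin genes 7 were higher (median 0.71), the nuclear lamin Lmnb1 (2.75) and the tubulins Tubb4b (2.58) and Tuba1b (2.55) leading, and Tubb2a (0.13), Tmsb10 (0.12) and Tmsb4x (0.10) lowest. Of 18 MYC and ribosome biogenesis genes 4 were higher (median 0.74), among them the snoRNP proteins Nop56 (1.26) and Dkc1 (1.24) and spermidine synthase Srm (1.20), of which only Srm (1.01) remained 2-fold against the depth-matched reference, and Gnl3 (0.35), Polr1b (0.27) and Wdr43 (0.26) were lowest. Of 12 cholesterol synthesis genes 3 were higher (median 0.73), among them Idi1 (1.40) and Fdps (1.30), which were at 0.83 and 0.96 at matched depth, with Hmgcs1 (0.34) and Insig1 (-0.26) among the lowest. Of 21 ranked glycolysis and hypoxia genes 0 passed 2-fold (Egln3 0.78, Adm 0.76, Ndrg1 0.65, Slc2a1 -0.23, Bnip3 -0.46, Hk2 -0.94, which was at -1.12 at matched depth), and of 16 oxidative phosphorylation genes 1 did, cytochrome c (Cycs, 1.02), then Sdhb (0.45) and Cox7a2 (0.37), with Ndufb9, Ndufa4 and Cox4i1 from 0.03 to -0.01. Of 17 chaperone and unfolded protein genes Hsp90aa1 (1.01) was higher and Dnajb9 (-1.05) lower, with Hspd1 at 0.74, Hsph1 at 0.70, Herpud1 at -0.53 and Ddit3 at -0.62. At matched depth none of these 3 calls held, with Cycs at 0.82, Hsp90aa1 at 0.79 and Dnajb9 at -0.84. Over all ranked genes 5.58% were higher and 4.78% lower, and 1 of 16 or 1 of 17 is near that share.

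Of the bone matrix genes Spp1 and Ibsp were lower in cycling cells, and 5 of the 7 ranked members were within 2-fold. Spp1 (osteopontin), a secreted glycoprotein of mineralized matrix, was detected in all 128 cycling cells, from 1030 through a median of 9937 to 53046 CPM, and in the reference from 120 through 20906 to 242560 CPM. The ranges overlap widely, and the summed level was 12801 against 25766 CPM (log2 -1.01, interval -1.02 to -1.0), or -0.76 at matched depth. Ibsp (bone sialoprotein) was at 40.5 and 222 CPM (-2.46, interval -2.67 to -2.25, and -2.0 at matched depth), and was found in 14.2% of cycling and 29.9% of reference cells thinned (26.6% and 39.6% unthinned). Dmp1, of the same protein family, was at 210 and 401 CPM (-0.94, and -0.27 at matched depth), Mgp at 4574 and 6877 CPM (-0.59), Postn at 81.1 and 113 CPM (-0.48) and the bone transcription factor Runx2 at 64.4 and 78.0 CPM (-0.28). The median over the 7 was -0.80, and at matched depth 1 of 6 was lower, Ibsp. Fibronectin (Fn1) was at 2385 and 5245 CPM (-1.14, interval -1.16 to -1.11, and -1.04 at matched depth), with per-cell medians of 1857 and 4533 CPM.

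Along the cycle-gene level the reference was not flat. Spp1 was at 27363 CPM in the 2161 reference cells with no UMI of the 7 genes, 23552 CPM in the 1275 with any, 20409 CPM in the 190 of these at 100 CPM or more, and 14276, 11614 and 12436 CPM in the 43 lowest, 42 middle and 43 highest cycling cells. Psat1 ran the other way, at 3.30, 5.22 and 8.80 CPM in the reference steps and 36.7, 38.4 and 35.3 CPM in the cycling ones, as did Ccnd1 from 171 CPM to 485 CPM. Median depth was 19651, 23009 and 18440 UMIs in the reference steps and 34999, 33757.5 and 34856 UMIs in the cycling ones, and its part in these levels was not tested. Within the cycling cells Dmp1 and Ibsp were highest in the top step, at 353 and 68.0 CPM, and Areg was lowest there, at 132 CPM. Dmp1 was at 454, 328 and 340 CPM in the reference steps, so its top cycling step lay among them.

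**Figure D4:**
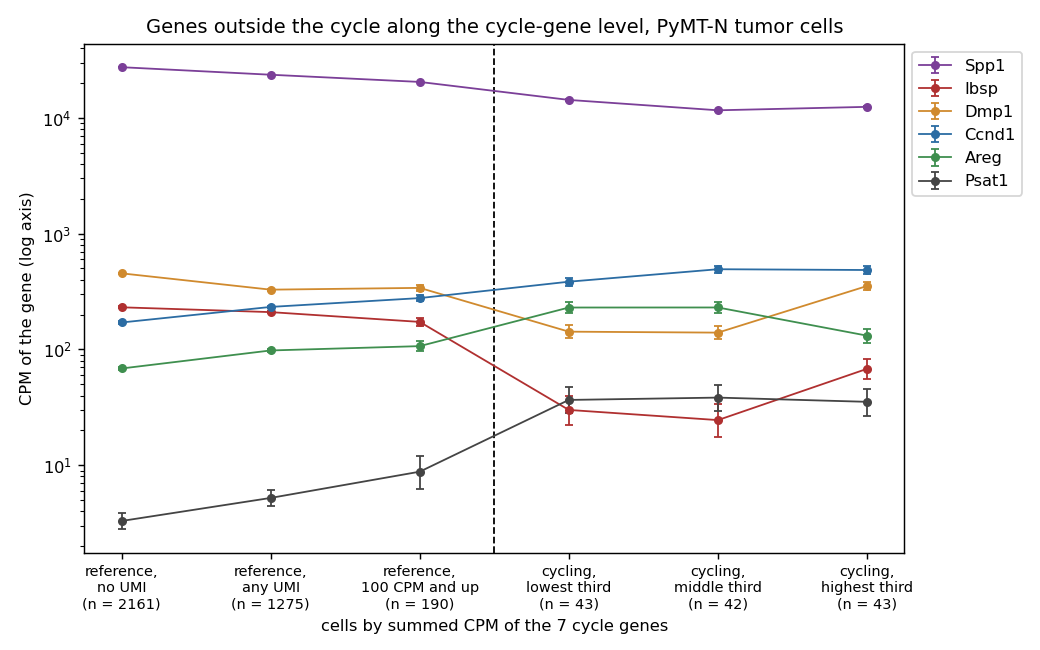
Summed CPM (y axis, log scale) of 6 genes in PyMT-N tumor cells grouped by the summed CPM of the 7 cycle genes (x axis), with 95% Poisson intervals; the cells at 100 CPM and up are part of those with any UMI, and the dashed line parts reference from cycling cells. Spp1 is lower and Psat1 and Ccnd1 are higher at each successive reference step. Ibsp and Dmp1 drop at the line, and Dmp1 is back within its reference range in the highest cycling cells.

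Of 3 ranked keratins 0 passed 2-fold, with Krt10 at -0.09, Krt8 at -0.13 (interval -0.18 to -0.08) and Krt18 at -0.46 (interval -0.51 to -0.42). Of 6 ranked luminal and junction genes 2 were lower, the desmosome gene Dsp (-1.26, on 14 UMIs, 7 of them in 1 cell) and Wfdc18, with 0 cycling and 277 reference UMIs, 97.8% of which were in 1 reference cell, while Esr1 (-0.01), Gata3 (-0.24), Tjp1 (-0.30) and Jup (-0.87) were within 2-fold. Besides Wfdc18, the ranked genes Il1rl2 and Gda had 0 cycling UMIs, against 210 and 273 in the reference. Of 15 basal and mesenchymal genes Fn1 was lower and Acta2, smooth muscle actin, higher (218 against 43.5 CPM, log2 2.33), but 1 cell gave 33.5% of its cycling UMIs and the ratio without the top cells was 1.79. Itga6 (0.80), Vim (0.55), Trp63 (-0.49) and Snai1 (-0.72) followed. In the 15 ranked collagen and matrix genes Mmp3, stromelysin, stood alone above 2-fold, at 168 against 37.8 CPM (2.15, and 1.46 at matched depth), with 44.1% of cycling and 11.4% of reference cells positive when thinned (62.5% and 21.7% unthinned). Mmp9 (0.37), Lamb3 (0.21), Col4a1 (-0.61), Col12a1 (-0.74) and Col6a1 (-0.81) were the other extremes. In these lists 1 call among 15 genes is near the share over all ranked genes, 5.58% higher and 4.78% lower.

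The 10 lowest genes by ratio outside the cycle lists included the surface glycoprotein Cd200 (-2.53, 3.95 against 22.8 CPM), Tcp11l2 (-2.53), the phosphodiesterase Pde7b (-2.50), Ibsp, the proteoglycan decorin Dcn (-2.20), the Wnt agonist Rspo3 (-2.19), Chsy3 (-2.15), 4833422C13Rik (-2.07) and Rasl11b (-2.05). Most were scarce. Cd200 was in 3.1% of cycling and 14.1% of reference cells when thinned (11.7% and 24.8% unthinned), and 41.1% of the cycling Dcn UMIs were in 1 cell.

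Of 15 ranked growth factor receptors and ligands Met, the HGF receptor (26.8 against 8.75 CPM, 1.61), and the EGFR ligand Areg (198 against 80.9 CPM, 1.29) were higher, at 0.70 and 0.69 at matched depth, and Ereg (0.31), Vegfa (-0.76), Egfr (-0.79) and Pgf (-0.83) were within 2-fold, with Vegfa at -1.04 at matched depth. Of 11 ranked chemokines and cytokines Cxcl2 (1.48, with 46.6% of UMIs in 1 cell) and Csf1 (1.05) were higher, Lif was at 0.84 and Tgfb1 at -0.76, and Csf3 (-1.03, on 14 UMIs) and Ccl5 (-3.95, on 1 UMI against 250, interval -9.26 to -1.46) were lower. At matched depth none of the 5 ranked ones passed 2-fold. Csf3 turned to 0.0495 with cells thinned before the threshold, and Cxcl2 to -1.10 with the G1/S range alone. Of 16 ranked immediate early genes the AP-1 subunit Fosl1 was higher (1.85) and Fos lower (-1.07), with Atf3 at 0.65, Zfp36 at 0.19, Junb at -0.77 and Egr2 at -0.96. Of 16 p53 targets the CDK inhibitor Cdkn1a was higher (59.5 against 19.1 CPM, 1.64) and Pmaip1 lower (-1.55, on 5 UMIs), with Sesn2 at 0.89, Ccng1 at 0.44, Gadd45a at -0.83 and Trp53inp1 at -0.86. For both lists 1 of 16 in each direction is near the share over all ranked genes, 5.58% higher and 4.78% lower. Of 20 interferon response genes 0 passed 2-fold (Ifit2 0.72, Ifi27l2a 0.61, Ifit1 -0.22, Rsad2 -0.27, Gbp2 -0.45), nor did any of 13 MHC class I genes (H2-Q4 0.88, Psmb9 0.67, Tap1 0.57, B2m -0.14, Tap2 -0.24, H2-T23 -0.62). For Ifit3 and Ifit1, 2 of the interferon genes, the ratio averages over unlike cycling cells. Their upper quartile over cycling cells was 0 CPM, so a minority of the cells held their UMIs. Over all alternatives Rsad2 fell as low as -2.87, while Ifit2 stayed at 0.177 or above. Ifit3 (0.00 over all cycling cells) was at 6.70 CPM in the G1/S range and 36.8 CPM in the G2/M range, and Ifit1 at 12.1 and 42.8 CPM. In the G1/S range these rest on 10 and 18 UMIs, and against the reference that range alone was at -2.17 and -1.85. The summed level of the 20 genes differed less between the ranges (log2 0.39), and Isg20 differed by -0.10 (interval -0.96 to 0.80). At matched depth 1 of 14 interferon and 1 of 12 MHC class I genes passed, the latter H2-Q4 at 1.08, with Fosl1 at 1.04 and Fos at -1.04, and 0 of 9 ranked p53 targets passed. The lowest ratio of Cdkn1a over all alternatives was 0.998, just under 2-fold.

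Among the 127 thinned cycling cells, variation beyond counting was read from the Fano factor, the variance of UMIs over their mean, which counting alone holds near 1. Its median was 1.21 over the 2766 genes with a mean of at least 0.5 UMIs. Iglc1 led at 199 through its 1 cell, followed by Spp1 (70.1, from 5 to 440 UMIs with a median of 75), Malat1 (44.4), Mgp (33.2), the metallothionein Mt1 (21.3), ferritin heavy chain Fth1 (20.7), S100a6 (17.4), Cxcl14 (14.1), Fn1 (13.3) and Actb (12.8). In the reference Spp1 was at 124, Malat1 at 68.9 and Mgp at 67.2. Mt1 (11.6) and Actb (7.19) were lower there.

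Values of the same split are set side by side for the 3 kinds of cells, with PyMT-M tumor cells taken without the keratin limit. For the kinesin and spindle list the median log2 ratio was 5.94 in PyMT-N tumor, 2.93 in PyMT-M tumor and 5.65 in PyMT-N endothelial cells, for origin licensing 2.49, 0.71 and 2.39, and for serine and one-carbon 1.31, 0.13 and 1.28. The reference of PyMT-M itself held cycle genes, at a median of 137 CPM of the 7 genes, where that of both PyMT-N cell kinds was 0, so the ratios are against unlike references. The levels of genes of the rule, whose sum had to reach 500 CPM in each kind of cycling cell, are given as a description. Top2a was at 513 CPM in cycling PyMT-N tumor, 381 CPM in PyMT-M tumor and 533 CPM in endothelial cells, and Cenpf at 287, 280 and 299 CPM. Mki67 was at 265 and 417 CPM in the PyMT-N tumor and endothelial cells and 43.0 CPM in PyMT-M cells. The bone matrix list had medians of -0.80, -0.26 and -0.72 on 7, 3 and 2 ranked members. These differences between libraries and cell kinds were not tested.

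**Figure D5:**
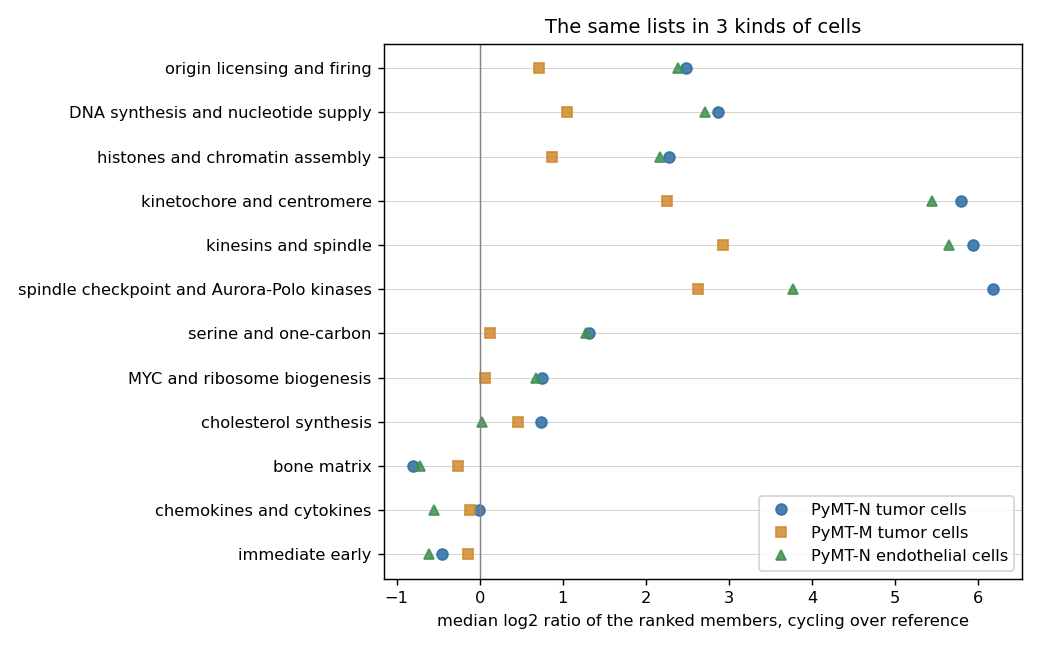
Median log2 ratio of ranked members, cycling over reference (x axis), for 12 gene lists (rows) in PyMT-N tumor cells (circles), PyMT-M tumor cells (squares) and PyMT-N endothelial cells (triangles). The PyMT-M cells were taken without the keratin limit. Cycle lists are farther right in both PyMT-N cell kinds than in PyMT-M, and serine and one-carbon genes sit at 1.31, 0.13 and 1.28.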

How the data were processed

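Single-cell RNA-seq of 1 PyMT-M and 1 PyMT-N library was used. The deposited values are raw UMI counts, which the authors made with Cell Ranger 8.0.0 on mm39 per the submitters' processing notes. Cells were gated as in the report. Genes were taken by listed symbol, with reads of near-identical copies left uncertain. The members and all 40 lists were chosen with earlier results of these data known. Sums per class were scaled to CPM. Shares have Clopper-Pearson intervals and ratios exact Poisson intervals (95%), for counting error only. Genes named are the markers and rule genes, the 10 highest and 10 lowest ratios outside the cycle lists with at least 10 UMIs in the lower class, the 3 highest and 3 lowest ranked members of each list, the most abundant markers of other cell types, and the 10 highest Fano factors. D cyclins, Ccne1, Pttg1 in PyMT-M, Cdk4, Cdk6, Rad21, Shmt2, Mthfd1, Asns, Il1rl2, Gda, Ifit3, Col3a1, Col1a1 and the plasma cell genes were named after their values were seen. Doublets were scored with Scrublet in scanpy 1.11.5 and kept in the main values. On simulated counts for cycling against reference cells over 10993 genes, 200 of them changed, 95.8% of intervals held the true value. These counts were drawn from the Poisson model that the intervals assume, without variation between cells. They check the calculation only and not the coverage in the real data. Scripts ran under Python 3.11.15 with scipy 1.17.1 for intervals, pandas 2.3.3 for tables, numpy 2.4.6 for sums and draws, and matplotlib 3.10.9 for plots. Alternatives covered the gates, threshold, depth, doublets, scaling and count minimum. RefSeq promoters matched 7 of 7 rule genes, 26 of 30 G2/M and 24 of 30 G1/S genes by symbol, some with several starts. Some genes that the naming rule picks are not reported here.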

Additional observations from a re-analysis of the deposited data

Results flagged for a closer look

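Mmp3 had a log2 ratio of 2.15 (cycling over reference) in PyMT-N tumor cells and of -1.03 (interval -1.23 to -0.83) in PyMT-M tumor cells, where it was at 4.82 and 9.84 CPM. The opposite directions drew attention, and the difference was not tested. In PyMT-N 11.3% of its cycling and 9.54% of its reference UMIs were in 1 cell each.

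Outside the gate, 27 PyMT-N barcodes passed the threshold on the 7 cycle genes and held keratin UMIs together with more than 1 endothelial UMI. They stand outside every comparison above. In all, 342 PyMT-N barcodes passed the threshold, of which 128 are the cycling cells and 99 are in the endothelial gate.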

How the results depend on the processing

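The share of cycling cells stayed between 3.11% and 4.07% over 9 alternatives, and the ratio of UMIs per cell between 1.68 and 1.70 over 3. No alternative loosened the endothelial limit, a raw UMI count that is not scaled to depth. That step took keratin-positive cells past the threshold from 159 to 132, and all keratin-positive cells from 3844 to 3595. Its part in the share was not tested. The count of genes at least 2-fold higher (613) became 346 with the reference drawn to the same UMI distribution and 2293 with no count minimum. The count lower (526) became 100 with the drawn reference, 1063 with at least 50 UMIs, 1121 with no minimum, and, in alternatives chosen after seeing the data, 818 without the cell with most UMIs of each gene and 1181 with the 40 cycling cells of the G1/S range alone. Fewer cells and lower count minimums put scarcer counts behind a ratio. The share of reference cells at the cycling G1/S median (1.86%) became 1.08% without thinning and 0.860% at a 250 CPM threshold. In PyMT-M 18 genes were lower with the keratin limit, against 39. Csf3 turned from -1.03 to 0.0495 with cells thinned before the threshold, and Cxcl2 from 1.48 to -1.10 with the G1/S range alone; the cause was not tested. Of 590 list medians over the alternatives 563 moved by less than 1.5-fold, and none that was past 2-fold changed sign. Of the single-gene ratios 6077 stayed the same, 966 moved and 2 reversed. Setting the median log2 ratio to 0 gave 678 higher and 418 lower genes. No paired analysis was possible because each model has 1 library, and for the same reason none could be left out in turn.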
